A study of Mus musculus with 16 samples.

Results

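The transcripts examined here are 10 textbook target genes of the tumour suppressor p53 in the developing mouse adrenal gland. They are Cdkn1a, Btg2, Eda2r, Ccng1, Zmat3, Trp53inp1, Mdm2, Plk2, Phlda3 and Sesn1, taken by gene symbol out of 18193 genes that the array names, and 21 of its 45101 probe sets are annotated to them alone. Affymetrix Mouse430_2 arrays, which read each transcript with one or more sets of short oligonucleotides, were hybridised with RNA from whole adrenals at 2 embryonic stages, E15.5 and E16.5, counted in days from a plug morning set as E0.5. The knockout group (KO) carried a Cre transgene driven by Sf1, a nuclear receptor of the steroidogenic lineage, together with homozygous lox alleles of Dicer, so that Dicer is removed in Sf1-expressing cells and is kept in other cells of the same gland. The control group, labelled WT, was made of littermates without Cre. The parents all carried lox alleles (Sf1-Cre/Dicerlox/lox, Sf1-Cre/Dicer+/lox and Dicerlox/lox), so control pups may carry lox alleles too. All were on a C57BL/6 background. Each array holds the pooled glands of one genotype from one litter, and with 4 litters a stage there are 4 groups (WT and KO at each stage) of 4 arrays. The p-values below measure the spread between these litter pools. The main fit does not pair the WT and KO pools of a litter, since no label ties a replicate number to a litter.

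The p53 protein is a transcription factor that is held at a low level by the ubiquitin ligase MDM2 and is stabilised by DNA damage and other stress. It then binds DNA as a tetramer and raises genes that halt the cell cycle, feed back on p53 itself, repair damage or promote cell death. Dicer cuts microRNA precursors into mature microRNAs, and the comparison sets glands whose steroidogenic lineage lost it against control glands, at each stage.

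In the binding sequence of p53, a half-site is a palindrome of 10 bases with C and G at fixed places, and adjoining half-sites give the spaced core CATGNNNNNNCATG in the strongest form. RefSeq promoter windows, from 250 bases before to 50 after a transcription start, were on hand for 8 of the 10 genes (10 windows, GRCm38.p6; none for Zmat3 or Trp53inp1). Both patterns read the same on either strand. The core was found in 1 of the 10 windows, that of the upstream Cdkn1a start, and in 0.712% of all 32851 windows of that length. The window lies at chr17:29090729-29091028, plus strand, 2790 bases upstream of the other Cdkn1a start. It is printed because Cdkn1a had the largest E15.5 difference of the 10 genes; capitals mark the letters matched by the half-site consensus or the core.
Cdkn1a upstream start: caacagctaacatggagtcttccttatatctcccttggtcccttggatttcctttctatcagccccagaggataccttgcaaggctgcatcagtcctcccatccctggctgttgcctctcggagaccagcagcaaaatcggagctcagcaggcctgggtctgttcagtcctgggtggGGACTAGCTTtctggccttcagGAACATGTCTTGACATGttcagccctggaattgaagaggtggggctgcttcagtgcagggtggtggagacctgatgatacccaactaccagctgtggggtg
The core, CATGTCTTGACATG, ends 34 bases before the start, and 7 of its 14 letters overlap the half-site match GAACATGTCT. A second half-site match, GGACTAGCTT, lies before it. Half-site matches stood in 4 of the 10 windows, against 8.36% of all windows, and the other 3 are given with their flanks, the match in capitals and each sequence 5′ to 3′ on the strand of the gene.
Ccng1, chr11:40755447-40755486, minus strand: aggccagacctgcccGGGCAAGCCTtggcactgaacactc
Mdm2, chr10:117710920-117710959, minus strand: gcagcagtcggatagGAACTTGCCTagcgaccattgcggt
Sesn1, chr10:41887251-41887290, plus strand: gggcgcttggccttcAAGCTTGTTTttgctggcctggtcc
These matches are descriptions of letters in short windows. Of the 4 genes with a half-site match, Cdkn1a and Ccng1 were higher in KO at E15.5 by the test given below, and Mdm2 and Sesn1 did not pass it.

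Signals are log2 values made by RMA, so a difference of 1 is a doubling, and each array gives the level of a probe set and not of a cell: in a whole gland, more RNA per cell and more cells of one kind cannot be told apart. Mean signal over all probe sets was 6.35 to 6.37 on the 8 KO arrays and 6.31 to 6.32 on the 8 WT arrays, without overlap, and the median KO minus WT difference over the 9008 dimmest probe sets was 0.10 at E15.5 and 0.07 at E16.5. WT_E16.5 replicate 2 stood apart in the control probe sets for RNA quality, with a 3′ minus 5′ signal of 3.15 against 0.19 to 1.62 on the other 15 arrays. Dicer1 read 8.50 to 8.64 in WT and 8.0 to 8.36 in KO at E15.5, and 8.45 to 8.83 and 8.09 to 8.42 at E16.5, all KO pools below all WT pools. The difference was -0.35 (SE 0.11, limma adjusted p = 0.0638) and -0.36 (SE 0.11, adjusted p = 0.0414), in glands in which other cells keep the gene. Where its probes lie against the deleted exons is not known here. Nr5a1, which encodes Sf1, differed by 0.56 (adjusted p = 0.396) and 0.19 (adjusted p = 0.797).

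At E15.5, 5 of the 10 genes were higher in KO and none was lower: Cdkn1a by 1.53, Btg2 by 1.11, Eda2r by 1.00, Ccng1 by 0.77 and Zmat3 by 0.59 on the log2 scale. At E16.5, 4 were higher (Btg2 by 1.27, Eda2r by 1.03, Ccng1 by 0.69, Zmat3 by 0.59) and 1, Trp53inp1, was lower by 0.45. The difference of Cdkn1a at that stage was 1.00 and missed the threshold with all arrays. Mdm2, Plk2, Phlda3 and Sesn1 passed at neither stage. A gene was called when the Benjamini-Hochberg adjusted p of limma's moderated test, two-sided and adjusted over 13642 genes, was under 0.05. Over all genes tested, 3.69% were called higher and 2.18% lower at E15.5, and 6.99% higher and 3.56% lower at E16.5. The median difference over the 10 genes was 0.46 at E15.5 and 0.49 at E16.5, beside 0.07 and 0.08 over all genes tested. The 10 genes were chosen with earlier results of these data known, so these counts and medians describe the list and do not test it. Macrophage markers were higher in KO as well, 6 of 10 at E15.5 and 10 of 10 at E16.5.

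The higher mean signal of the KO arrays was allowed for at 2 levels. The first was the median KO minus WT over the 9008 dimmest probe sets (0.10 at E15.5, 0.07 at E16.5). Against it the same 5 genes were higher at E15.5, where 2.29% of all genes tested were. At E16.5 the same 4 were higher (4.99% of all genes) and Trp53inp1 was lower (2.7%). The second, set after the values were seen, was the 90th percentile over those probe sets (0.34 at E15.5, 0.31 at E16.5). Against it none of the 5 passed at E15.5, where 0.542% of all genes tested were higher by that measure. Btg2 and Eda2r passed at E16.5, where 1.3% were. Without the 2 E15.5 arrays whose raw files carry an R in their name (replicate 1 of WT and of KO), Cdkn1a (1.43, limma adjusted p = 0.0708) and Ccng1 (0.71, adjusted p = 0.0603) missed the threshold at E15.5, and 2.05% of all genes tested were higher.

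**Figure D1:**
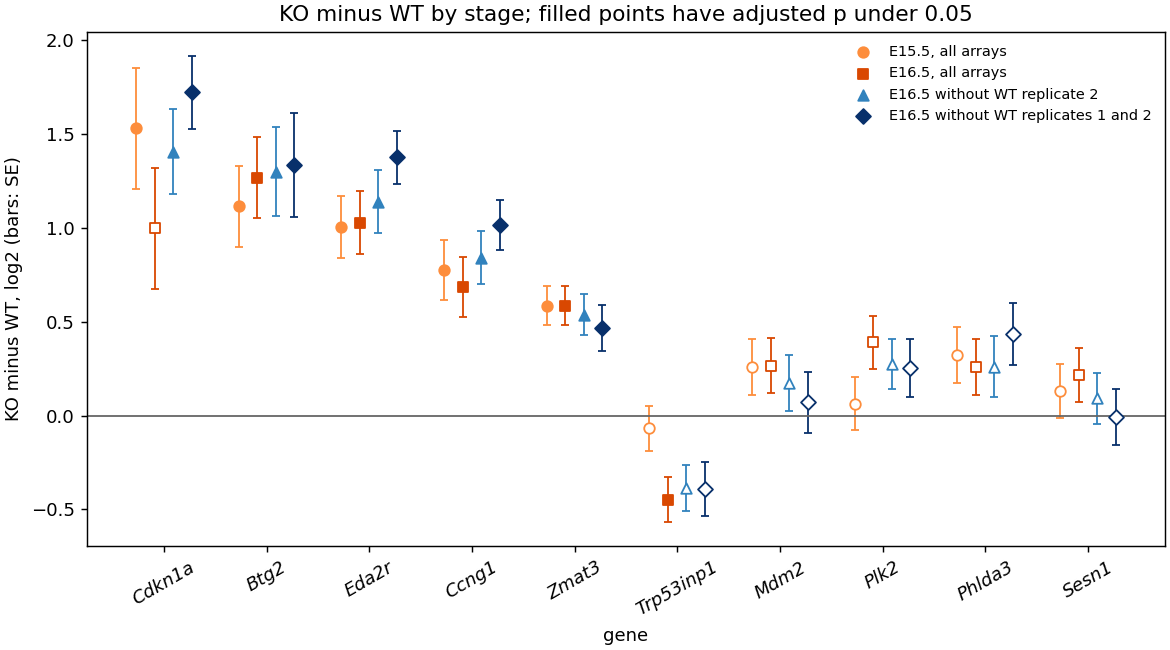
KO minus WT difference on the log2 scale for each of the 10 p53 target genes at E15.5 and at E16.5 with all arrays, without WT replicate 2 and without WT replicates 1 and 2; bars are SE from the limma fit and filled points have an adjusted p under 0.05. With all arrays Cdkn1a stands at 1.53 and 1.00, Btg2, Eda2r, Ccng1 and Zmat3 lie at or above 0.59 at both stages, and Trp53inp1 lies below 0.

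Cdkn1a encodes p21, the inhibitor of cyclin-dependent kinases through which p53 stops the cell cycle. Its log2 signal at E15.5 was 7.67, 7.96, 8.08 and 8.18 in WT replicates 1 to 4, and 9.50, 9.65, 9.65 and 9.21 in KO replicates 1 to 4. All 4 KO pools lay above all 4 WT pools. The group means were 7.97 ± 0.22 and 9.50 ± 0.21 (SD, n = 4 each), a 2.89-fold difference (SE 0.32 on the log2 scale, limma adjusted p = 0.00846). At E16.5 the WT values were 9.01, 10.02, 8.28 and 7.85, and the KO values 10.17, 9.60, 9.56 and 9.82. WT replicate 2 lay inside the KO range and replicate 1 lay between the other controls and the KO pools, so the WT spread reached an SD of 0.95 against 0.28 in KO. The difference was 1.00 (SE 0.32, limma adjusted p = 0.0609).

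The E16.5 call for Cdkn1a turned on that control. Without WT_E16.5 replicate 2 the difference was 1.41 (SE 0.23, limma adjusted p = 0.000793). Without replicate 1 alone it was 1.07 (adjusted p = 0.0793), and without both, an alternative added after the values were seen, it was 1.72 (adjusted p = 8.86e-05). A second probe set of Cdkn1a gave another picture of these arrays: there WT_E16.5 replicate 2 read 7.37, beside 7.33 and 7.52 in replicates 3 and 4, while replicate 1 read 8.92, just above the KO range of 8.57 to 8.91. The kept minus second probe set gap was 2.65 in replicate 2 and 0.09 to 1.35 on the other 15 arrays. The high Cdkn1a value of replicate 2 was thus seen by 1 of the 2 probe sets, and that of replicate 1 by both. The part of the 3′ to 5′ signal in this gap was not tested.

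Btg2 encodes an antiproliferative protein that recruits the machinery that removes mRNA tails. Its signal at E15.5 was 9.06, 8.87, 9.21 and 8.04 in WT and 9.46, 9.96, 9.95 and 10.26 in KO. At E16.5 it was 9.05, 9.11, 8.90 and 8.99 in WT and 10.51, 10.49, 10.10 and 10.02 in KO. The groups did not overlap at either stage. WT_E16.5 replicates 1 and 2, which stood high for Cdkn1a, lay above replicates 3 and 4 here too, but all read within 8.90 to 9.11. Btg2 was 2.17-fold higher at E15.5 (log2 difference 1.11, SE 0.22, limma adjusted p = 0.00462) and 2.41-fold higher at E16.5 (1.27, SE 0.22, adjusted p = 0.00112). WT_E15.5 replicate 4, the lowest control here, read 7.76 on a second probe set of Btg2, where the other E15.5 controls read 7.31 to 7.66. The gap between the probe sets was 0.28 on that array and 1.29 to 2.33 on the other 15. With single arrays left out, the E15.5 difference ran from 0.86 to 1.26 and passed in all 16 fits.

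Plk2 encodes a polo-like kinase of early G1 and centriole duplication. At E15.5 it read 10.49, 10.45, 10.15 and 10.35 in WT and 10.60, 10.36, 10.21 and 10.53 in KO. At E16.5 it read 10.08, 9.66, 10.01 and 10.28 in WT and 10.24, 10.18, 10.55 and 10.62 in KO. The groups overlapped at both stages, and the differences were 0.06 (SE 0.14, limma adjusted p = 0.874) and 0.39 (SE 0.14, adjusted p = 0.0938). The E15.5 difference turned to -0.01 when arrays were centred on their 75th percentile. The E16.5 difference passed without WT_E16.5 replicate 4 (0.48, adjusted p = 0.0488). Without WT_E16.5 replicate 2 it was smaller (0.28, adjusted p = 0.2055), as it was without replicates 1 and 2 (0.25, adjusted p = 0.3607).

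Among genes that feed back on p53, Ccng1 encodes cyclin G1, a partner of protein phosphatase 2A that acts on MDM2. Its signal at E15.5 was 10.30, 10.19, 10.37 and 10.12 in WT and 11.28, 10.89, 10.90 and 11.00 in KO. At E16.5 it was 10.82, 11.09, 10.36 and 10.24 in WT and 11.42, 11.07, 11.37 and 11.40 in KO. WT_E16.5 replicates 1 and 2 again stood above replicates 3 and 4, and replicate 2 was just above the lowest KO pool. The difference was 0.77 at E15.5 (SE 0.16, limma adjusted p = 0.0074) and 0.69 at E16.5 (SE 0.16, adjusted p = 0.0118), and 0.84 at E16.5 without WT replicate 2 (adjusted p = 0.00115). Fitted on the 8 arrays of E16.5 alone, Ccng1 missed the threshold (0.69, adjusted p = 0.0669). Another probe set of Ccng1 read WT_E16.5 replicate 2 at 7.19, the lowest of all 16 arrays. It lay 3.90 below the kept probe set there and 1.79 to 3.40 below it on the other 15.

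Mdm2 encodes the ubiquitin ligase that marks p53 for destruction, and is itself a p53 target. It read 9.27, 9.37, 9.07 and 9.50 in WT and 9.71, 9.62, 9.46 and 9.46 in KO at E15.5. It read 9.14, 8.98, 9.31 and 9.59 in WT and 9.49, 9.17, 9.62 and 9.80 in KO at E16.5. The ranges overlapped at both stages, with differences of 0.26 (SE 0.15, limma adjusted p = 0.387) and 0.27 (SE 0.15, adjusted p = 0.296). Missing the threshold does not show that Mdm2 was level, and 7 of its 8 KO pools lay above the WT mean of their stage. Of all genes tested, 57.4% to 62.8% lay above that mean on each KO array. Without WT_E16.5 replicate 2 the E16.5 difference was 0.17 (adjusted p = 0.5052), and without replicates 1 and 2 it was 0.07 (adjusted p = 0.8417).

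Trp53inp1 encodes a stress-induced nuclear protein that binds p53-modifying kinases and acts in autophagy. It read 11.33, 11.38, 11.13 and 11.36 in WT and 11.40, 11.18, 11.24 and 11.11 in KO at E15.5. At E16.5 it was 11.38, 11.66, 11.25 and 11.55 in WT and 11.21, 10.71, 11.06 and 11.06 in KO. The groups overlapped at E15.5 and were apart at E16.5, with KO lower. The difference was -0.07 (SE 0.12, limma adjusted p = 0.84) and then -0.45 (SE 0.12, adjusted p = 0.0242). The E16.5 call was lost without WT_E16.5 replicate 2 (-0.38, adjusted p = 0.0531), without WT_E16.5 replicate 4 (-0.42), without KO_E16.5 replicate 2 (-0.35) and without KO_E16.5 replicate 3 (-0.47), the highest adjusted p being 0.0769. It was lost too when the 8 arrays of E16.5 were fitted alone (-0.45, adjusted p = 0.0956).

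Eda2r encodes a receptor of the tumour necrosis factor family that binds ectodysplasin A2. It read 4.90, 4.65, 4.86 and 4.77 in WT and 5.85, 5.54, 5.68 and 6.13 in KO at E15.5. At E16.5 it was 5.64, 5.61, 4.98 and 4.88 in WT and 6.27, 6.17, 6.38 and 6.39 in KO. KO was above WT in every pool at both stages, and WT_E16.5 replicates 1 and 2 once more lay above replicates 3 and 4. The differences were 1.00 (SE 0.17, limma adjusted p = 0.00132) and 1.03 (SE 0.17, adjusted p = 0.000734). Eda2r was tested because its signal exceeded the 40th percentile of an array on the 8 KO arrays and on 2 WT_E16.5 arrays. None of the 4 WT_E15.5 arrays reached it, so its E15.5 fold rests on WT signals near the floor, and it passed mainly through the groups in which it was high. WT_E16.5 replicates 3 and 4 (4.98 and 4.88) were below it too, as the percentile lay at 5.11 to 5.21. The E16.5 fold thus rests in part on such signals. How far the floor shifts these folds was not tested. Without it the counts of genes higher in KO are 4 of 9 at E15.5 and 3 of 9 at E16.5. The other 9 genes passed the filter on all 16 arrays.

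Zmat3 encodes a zinc-finger protein that binds RNA. It read 8.24, 8.52, 8.51 and 8.67 in WT and 9.17, 9.09, 8.90 and 9.13 in KO at E15.5. It read 8.47, 8.42, 8.62 and 8.75 in WT and 9.08, 9.13, 9.20 and 9.18 in KO at E16.5. KO exceeded WT in every pool at both stages, and WT_E16.5 replicates 1 and 2 were the lowest of the 4 controls rather than the highest. The difference was 0.59 at E15.5 (SE 0.11, limma adjusted p = 0.00265) and 0.59 at E16.5 (SE 0.11, adjusted p = 0.00179).

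Phlda3 encodes a small pleckstrin-homology protein that competes with Akt for membrane lipids. At E15.5 it read 7.78, 7.76, 7.94 and 7.99 in WT and 7.91, 8.12, 8.62 and 8.12 in KO; at E16.5, 8.29, 7.96, 7.94 and 7.61 in WT and 8.13, 8.21, 8.17 and 8.31 in KO. All 8 KO pools lay above the WT mean of their stage, as 57.4% to 62.8% of all genes tested did on each KO array, but the groups overlapped at both stages. The differences were 0.32 (SE 0.15, limma adjusted p = 0.245) and 0.26 (SE 0.15, adjusted p = 0.313).

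Sesn1 encodes a sestrin, a brake on mTORC1 signalling. It read 9.90, 9.78, 9.79 and 9.94 in WT and 10.15, 9.91, 9.88 and 9.98 in KO at E15.5, and 9.74, 9.45, 9.92 and 10.15 in WT and 9.77, 9.84, 10.26 and 10.25 in KO at E16.5. The groups overlapped at both stages, with differences of 0.13 (SE 0.14, limma adjusted p = 0.714) and 0.21 (SE 0.14, adjusted p = 0.407). Sesn1 at E16.5 turned to -0.01 when WT replicates 1 and 2 were both left out.

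**Figure D2:**
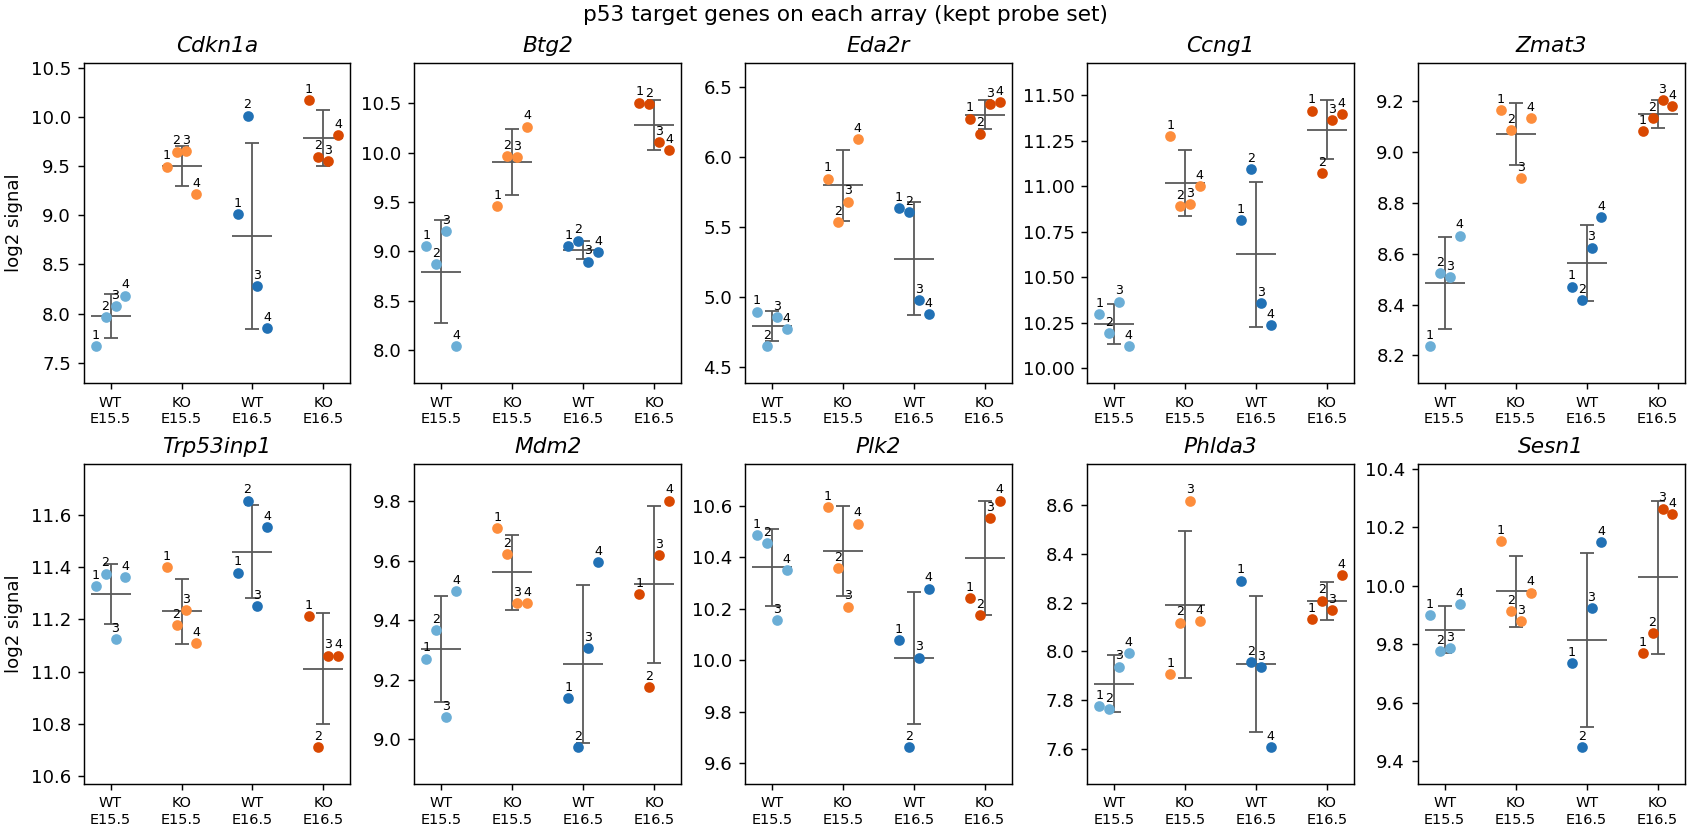
Log2 signal of each of the 10 genes on every array, 1 panel per gene, with WT and KO pools at E15.5 and E16.5 as points numbered by replicate, and the group mean with its SD as a bar. Cdkn1a, Eda2r and Ccng1 show WT_E16.5 replicates 1 and 2 above replicates 3 and 4 (Cdkn1a 9.01 and 10.02 against 8.28 and 7.85). Btg2 shows the same order within 8.90 to 9.11, and Zmat3 shows the reverse order.

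Counted by groups that do not overlap, 5 of the 10 genes had all KO pools above all WT pools at E15.5 (9.79% of all genes tested; 4.7% had all below, none of the 10 among them). At E16.5 this held for 3 genes, Btg2, Eda2r and Zmat3 (10.4% of all genes), and Trp53inp1 alone had all KO pools below (4.76%). Genes at unadjusted p under 0.05 were 6 of 10 at E15.5 and 7 of 10 at E16.5, where 19% and 24% of all genes tested were. With WT_E16.5 replicate 2 left out, Cdkn1a, Btg2, Eda2r, Ccng1 and Zmat3 were higher, among 8.6% of all genes, and none of the 10 was lower (3.9% of all genes). With replicates 1 and 2 both left out, the same 5 were higher (6.05% of all genes) and none lower (2.54%), with Cdkn1a at 1.72, Eda2r at 1.38, Ccng1 at 1.01, Btg2 at 1.34 and Zmat3 at 0.47. The median of the 10 genes without replicate 2 was 0.41, beside 0.07 over all genes.

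**Figure D3:**
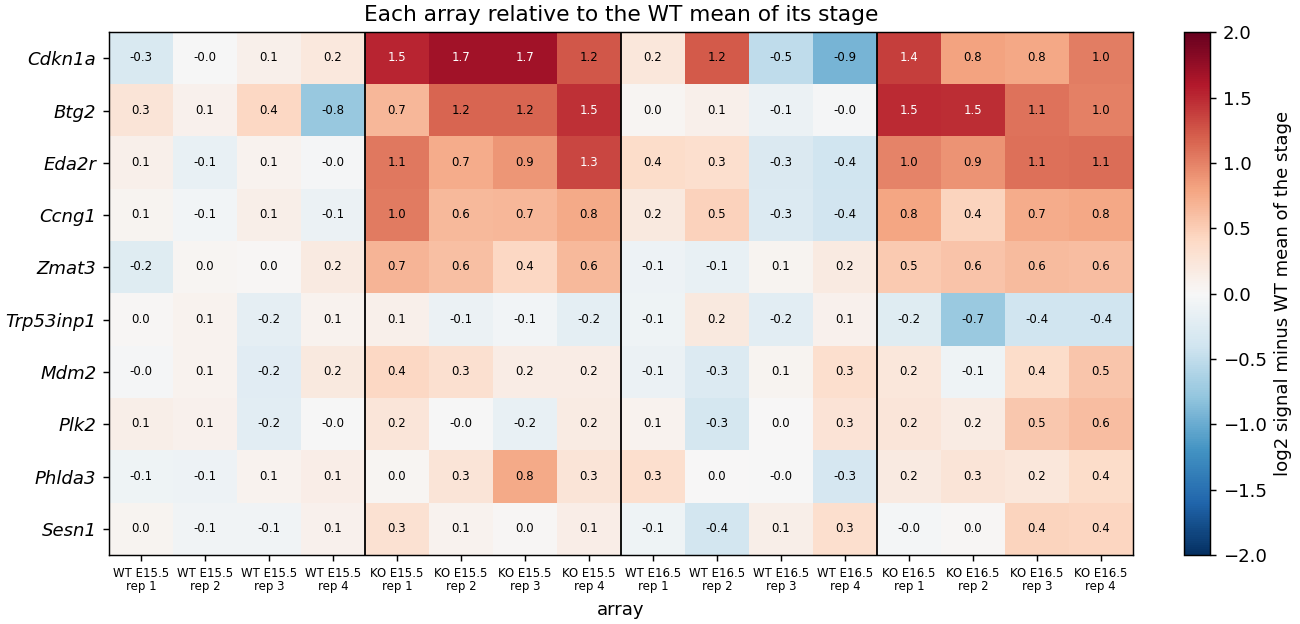
KO or WT array minus the mean of the WT arrays of its stage, in log2 units, for the 10 genes (rows) on the 16 arrays (columns). The KO columns are positive for Cdkn1a, Btg2, Eda2r, Ccng1 and Zmat3 at both stages, and the WT_E16.5 replicate 1 and 2 columns are positive for Cdkn1a, Eda2r and Ccng1.

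Taken array by array against the WT mean of its stage, each KO pool showed 8 to 10 of the 10 genes above 0, where 57.4% to 62.8% of all genes tested were, with a mean over the genes of 0.53 to 0.60 at E15.5 and 0.38 to 0.61 at E16.5. Among controls, set against the mean of the other 3 controls of their stage, the mean over the 10 genes was -0.01 to 0.02 at E15.5. At E16.5 it was 0.11 and 0.16 in WT replicates 1 and 2 and -0.16 and -0.12 in replicates 3 and 4.

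WT_E16.5 replicate 1 also read 7.75 for Nr6a1, a nuclear receptor gene, against 5.71 to 5.87 in the other 3 controls of that stage; Nr6a1 was higher in KO by 3.53 at E15.5 and 2.84 at E16.5 (limma adjusted p = 5.3e-06 and 1.88e-05). Over the 114 genes called at E15.5 with at least a 2-fold difference, members excluded, its median position between the WT mean (0%) and the KO mean (100%) of E15.5 was -2.03%, inside the range of -6.79% to 4.44% of all 8 controls. That median joins 11% over the genes raised in KO with -21% over those lowered; WT replicates 2, 3 and 4 of E16.5 stood at 14.2%, 2.12% and 7.8% and at -21.1%, -21.4% and -17.8%. The mean log2 signal of the macrophage markers was 8.57 in replicate 1 against 7.93, 8.04 and 7.92 in replicates 2, 3 and 4, and that of the erythroid markers 8.58 against 7.26, 7.23 and 6.80. The part of these markers in the values of replicate 1 was not tested.

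No difference of the KO effect between stages was called. No gene passed the test of the difference between the E16.5 and E15.5 effects, of the 13642 tested (0% called), while 258 (1.89%) had an unadjusted p under 0.05. Of the 10, Trp53inp1 was among those (difference of effects -0.38, SE 0.17, limma adjusted p = 1.00). For Cdkn1a it was -0.53 (SE 0.46) with all arrays and -0.12 without WT_E16.5 replicate 2. Between stages, none of the 10 was called in WT, where 0.0953% of all genes were, or in KO, where 0.902% were. In WT, 4 of the 10 had an unadjusted p under 0.05 (7.85% of all genes did): Cdkn1a 0.82, Eda2r 0.48 and Ccng1 0.38 in the direction of E16.5, and Plk2 at -0.35. In KO only Eda2r did (0.50, 9.51% of all genes).

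**Figure D4:**
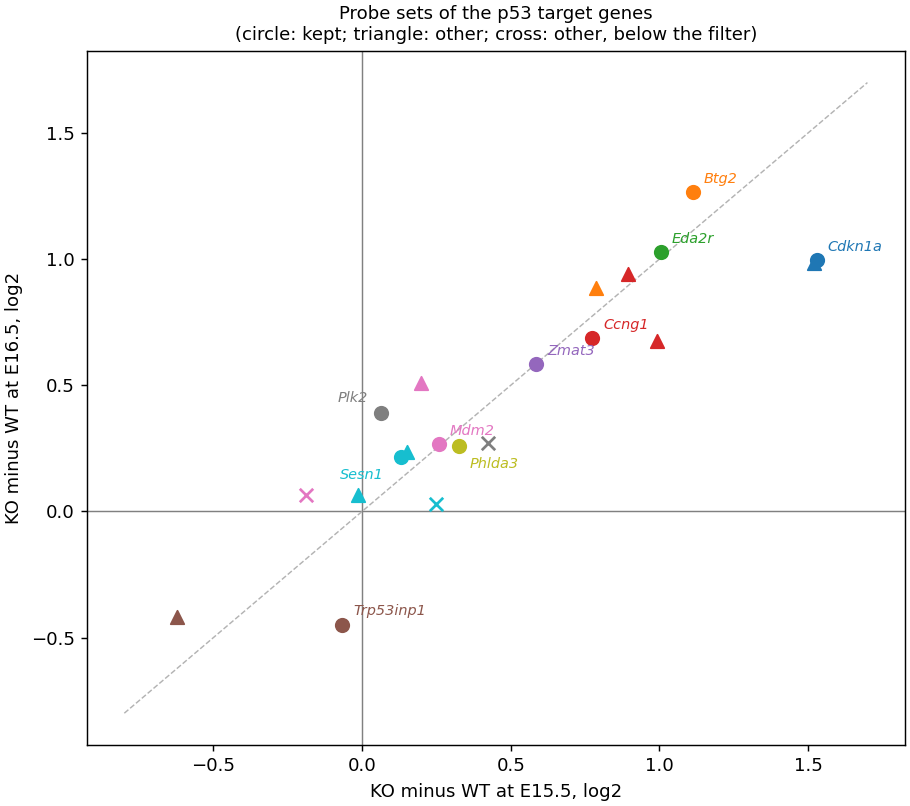
KO minus WT difference on the log2 scale at E15.5 (horizontal axis) against E16.5 (vertical axis) for the 21 probe sets of the 10 genes, with circles for the kept probe set of a gene, triangles for others that passed the filter on low signal and crosses for those that did not. Both Cdkn1a probe sets stand near 1.5 at E15.5 and 1.0 at E16.5, and both Trp53inp1 probe sets lie below 0 on both axes.

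The array carries 11 further probe sets for these genes, 8 of which passed the filter; those of Mdm2, Plk2 and Sesn1 that did not were near the floor on all arrays. Their sign was that of the kept probe set in 9 of 11 cases at E15.5 and 11 of 11 at E16.5. Tested over 28478 probe sets, 8 of the 18 that passed the filter were higher in KO and 1 lower at E15.5 (2.95% and 1.97% of all probe sets), and 7 were higher and 1 lower at E16.5 (4.77% and 2.92%). The second Cdkn1a probe set differed by 1.52 at E15.5 (limma adjusted p = 0.00434) and 0.99 at E16.5 (adjusted p = 0.0421), so it passed at both stages with all arrays. The second of Btg2 differed by 0.79 (adjusted p = 0.00384) and 0.88 (adjusted p = 0.0011). Ccng1 had 2 others: 1 differed by 0.89 and 0.94 and passed at both stages without overlap of the groups, and the other differed by 0.99 and 0.68 (adjusted p = 0.135 and 0.299). For Trp53inp1 a second probe set, above the filter on 7 arrays, was lower in KO by 0.62 at E15.5 (adjusted p = 0.0201), where the kept one differed by -0.07, and by 0.42 at E16.5 (adjusted p = 0.0992). It read 5.12 to 5.85 in WT and 4.58 to 5.14 in KO, and all 7 arrays above the filter were WT, so it was tested through the group in which it was high and its KO level is at the floor. Probes of 1 gene are not replicates of a condition, since they read the same RNA.

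Of further genes of the pathway, the regulators of p53 and the kinases that signal DNA damage had medians of 0.00 and 0.09. Of 13 tested, none was higher and 1 was lower at E15.5 (3.69% and 2.18% of all genes), and 1 was higher and 1 lower at E16.5 (6.99% and 3.56%). Both of the genes called lay near the floor. Trp63, a p53 paralogue, was lower by 0.53 at both stages (limma adjusted p = 0.00112 and 0.000739), from 5.25 in WT at both stages. It was above the filter on 6 arrays, all of them WT, so it was tested through the groups in which it was high and its KO level, 4.59 to 4.83, is at the floor. Trp73, the other paralogue, differed by 0.38 at E15.5 (adjusted p = 0.116) and was higher by 0.52 at E16.5 (adjusted p = 0.0199). It was above the filter on 7 arrays, all of them KO, and its WT level, 4.56 to 5.05, is at the floor. Mdm4, which encodes a partner of MDM2, differed by 0.16 and 0.19 and passed at neither stage (adjusted p = 0.713 and 0.582). Trp53 itself was not analysed here.

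Targets of p53 that act in cell death had medians of 0.13 and 0.22. Of 9 tested, an unadjusted limma p under 0.05 was found for 2 at the earlier stage and 5 at the later one (19% and 24% of all genes), and none passed after adjustment with all arrays. Aen, a nuclease of apoptosis, differed by 0.37 at E15.5 (limma adjusted p = 0.0752), and Pidd1, a death-domain adaptor, by 0.35 at E16.5 (adjusted p = 0.063). Both counts join directions: Perp differed by -0.55 at E15.5 (adjusted p = 0.158), and Bid, a BCL2-family member, by -0.43 at E16.5 (adjusted p = 0.1245). Without WT_E16.5 replicate 2, Bid was lower in KO by 0.56 (adjusted p = 0.0363).

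Targets in DNA repair, metabolism and signalling numbered 17 tested, with medians of 0.07 and 0.03, beside 0.07 and 0.08 over all genes. None passed at E15.5 (3.69% of all genes were higher and 2.18% lower), and 2 had an unadjusted limma p under 0.05 (19% of all genes). At E16.5, 2 were higher (6.99% of all genes). Sesn2, a relative of Sesn1, was higher by 0.77 (limma adjusted p = 0.0362) and Psrc1, a microtubule-binding protein gene, by 0.50 (adjusted p = 0.0293) at E16.5.

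Genes that p21 is known to lower through the DREAM repressor had no member called lower in KO. All 17 tested had a positive difference at E15.5, none passing (2 at unadjusted limma p under 0.05), with a median of 0.21. Over all genes tested, 19% had such a p at E15.5 and the median was 0.07. At E16.5 the median was 0.41 and 5 were higher: Mcm5 of the replicative helicase by 0.49 (limma adjusted p = 0.00392), Ccna2 for cyclin A2 by 0.47 (adjusted p = 0.0252), Top2a, Mki67 and Rrm2 by 0.42, 0.42 and 0.41. Over all genes tested 6.99% were higher at that stage. Without WT_E16.5 replicate 2, 6 of 17 were higher, beside 8.6% of all genes: Mki67 missed the threshold (adjusted p = 0.0727), and Bub1b (0.37, adjusted p = 0.0395) and Cdc20 (0.35, adjusted p = 0.0452), both of which act in mitosis, passed it.

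Because Btg2, Plk2 and Cdkn1a are also early response genes in many cells, immediate-early genes were set beside them. Of 14 tested, 1 was higher at E15.5 and 2 at E16.5, none lower, with medians of 0.15 and 0.08. Over all genes tested, 3.69% were higher and 2.18% lower at E15.5, and 6.99% and 3.56% at E16.5, with medians of 0.07 and 0.08. Atf3, a stress-induced transcription factor gene, was higher by 0.69 (limma adjusted p = 0.00193) and 0.73 (adjusted p = 0.000781), and Ier5 by 0.38 at E16.5 (adjusted p = 0.0102).

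**Figure D5:**
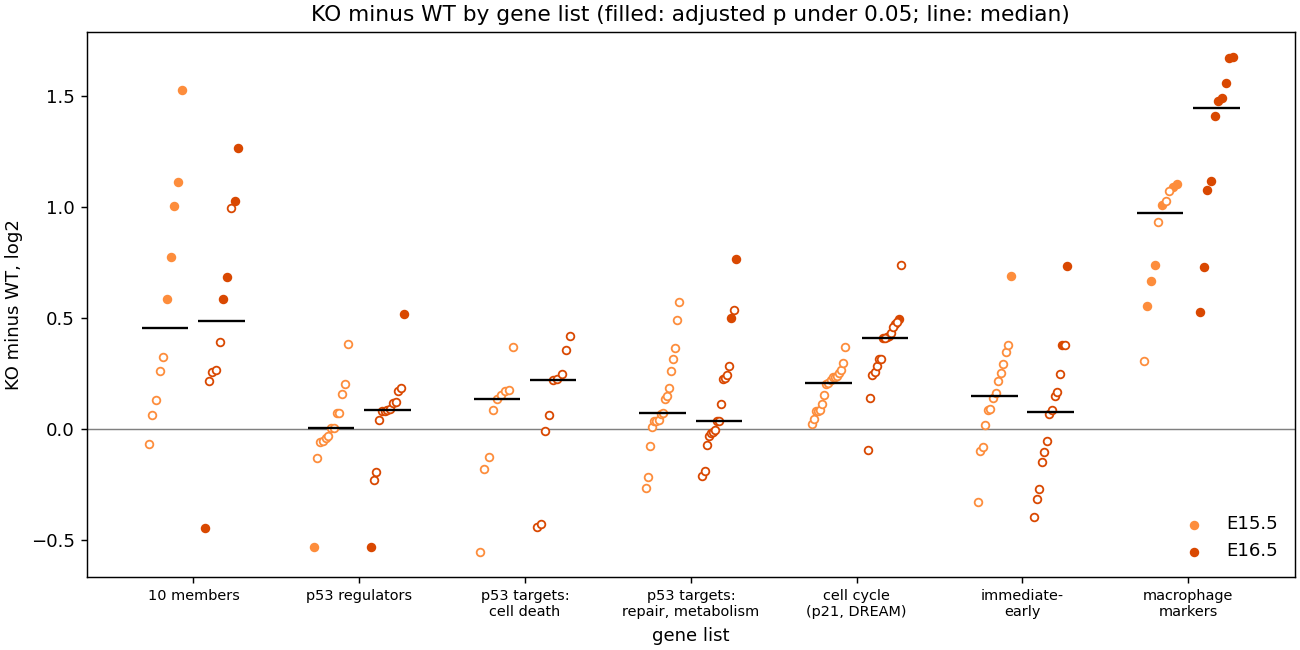
KO minus WT difference on the log2 scale for every tested gene of the 10 members and of the further lists, at E15.5 and E16.5, with a line at the median of each list and filled points for an adjusted p under 0.05. Medians of the 10 members are 0.46 and 0.49, those of cell death targets 0.13 and 0.22, and those of macrophage markers 0.97 and 1.44.

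Markers of other cells in the gland differed by genotype as well. All markers of the cortex (7), chromaffin cells (5) and macrophages (10) were above the filter on all 16 arrays. Of the macrophage markers, 6 were higher at E15.5 and 10 at E16.5, with medians of 0.97 and 1.44. Their summed signal was 11.63 to 12.04 in WT and 12.66 to 12.88 in KO at E15.5, and 11.93 to 12.35 and 13.17 to 13.55 at E16.5, on a log2 scale. Csf1r, the defining receptor of macrophages, was higher by 1.10 and 1.12. Of 7 cortex markers, 1 (Hsd3b1) was lower at E15.5 and 3 at E16.5 (Cyp21a1 by 1.09, Mc2r by 0.77 and Hsd3b1 by 0.40), and 2 of 5 chromaffin markers, Chga and Dbh, were higher at E16.5. The shares over all genes tested were 3.69% higher and 2.18% lower at E15.5, and 6.99% and 3.56% at E16.5. None of the erythroid (6), endothelial (5) or capsule (6) markers passed at either stage, and 3 kidney markers, Umod, Slc12a1 and Slc34a1, were below the filter on all arrays. Nphs1, also a kidney marker, was above the filter on 14 arrays, with group means of 5.26 to 5.42. It differed by 0.07 and -0.05 and passed at neither stage (limma adjusted p = 0.834 and 0.851). The part of these changes in the values of the 10 genes was not tested.

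By likeness of pattern, measured as Pearson's r of log2 signals with those of Cdkn1a over all 16 arrays, the nearest genes outside the 10 were Tom1 (0.92), Hsd17b14 (0.92), Chst11 (0.91), Spi1 (0.91) and Fst (0.90). Within the 10 the closest were Ccng1 (0.93) and Eda2r (0.87), and Trp53inp1 (-0.27), Plk2 (-0.09) and Sesn1 (-0.05) were the least alike. Over the 15 arrays without WT_E16.5 replicate 2 the nearest were Nr6a1 (0.96), Nr1d1 (0.95), Dnajb9 (0.94), Slc41a3 (0.94) and Myo1f (0.94). These are descriptions across arrays that share genotype and stage, so that any gene that differs between KO and WT raises r, and they carry no p.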

How the data were processed

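The deposited log2 values of 45101 probe sets on 16 arrays were made by the authors with RMA, which subtracts background, equalises the arrays' distributions and summarises each probe set on the log2 scale, per the submitters' processing notes, where limma is named too; versions are not given in the sources used here. The values were used as deposited. Probe sets with 1 symbol in the platform annotation named genes, and the probe set with the highest mean stood for its gene. A gene was tested when its signal exceeded the 40th percentile on 4 or more arrays (13642 of 18193 genes). A mean per group was fitted to the 16 arrays with limma 3.58.1 (R 4.3.3) and moderated with eBayes. P-values were adjusted by Benjamini-Hochberg over all genes tested. With 4 arrays a group the precision is limited, and a KO effect had a median SE of 0.139. The members and lists were chosen with earlier results of these data known. All 10 members were named throughout, as were Mdm4, Dicer1 and Nr5a1, up to 4 genes with the largest change among those passing in each further list (or the 2 with the smallest p where none passed), and the 5 genes most correlated with Cdkn1a. Nr6a1, Bid, Perp, the marker genes and Rrm2 were singled out after their values were seen. Alternatives changed the filter, scaling, weights, probe set rule, arrays, block and test.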

Additional observations from a re-analysis of the deposited data

Results flagged for a closer look

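Within the group of 4 KO pools at E16.5, Ccng1 in replicate 2 read 11.07 while the other 3 read 11.37 to 11.42, and its gap to the nearest value was 0.855 of the group's whole range, above Dixon's critical value for 4 samples. Of 40 groups of 4 arrays examined (10 genes in 4 groups) this was the 1 that stood out, and chance gives such a gap in about 1 of 20 groups.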

How the results depend on the processing

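Of 578 values of single genes for KO against WT under an alternative, 4 changed sign, and none of those was called; 39 of 269 differences of the KO effect did, and none was called. Counts of called genes moved as follows. With limma's array weights, which gave WT_E16.5 replicate 3 a weight of 10.4, 10 genes were called at E16.5 (9 higher, 1 lower), where 23.8% of all genes tested were higher and 12.4% lower, 1 between stages in WT (8.08% of all genes) and 1 in KO (3.19%). With only the arrays of the stage, 3 were called at E16.5: Ccng1 (0.69, limma adjusted p = 0.0669) and Trp53inp1 (-0.45, adjusted p = 0.0956) missed the threshold. Without the 2 E15.5 arrays marked R, 3 were called at E15.5. Against the 90th percentile of the dimmest probe sets, 0 were called at E15.5 and 2 at E16.5. Leaving out each array gave 5 calls at E15.5 throughout and 4 to 5 at E16.5. Same-numbered pools did not all deviate together (r from -0.39 to 0.45, above 0.1 in 5 of 8 pairs). In 3 of those pairs r was higher than for any other WT pool of the stage. No label ties a replicate number to a litter, so which WT and KO pools share a litter was not shown. With the replicate number as a block, 5 genes were called at each stage. At E16.5 Trp53inp1 then missed the threshold (-0.45, limma adjusted p = 0.0725) and Plk2 passed it (0.39, adjusted p = 0.0344). With the mean of all probe sets of a gene, 7 were called at E16.5, Cdkn1a (0.99) and Plk2 (0.33) being added. The cause of these shifts was not tested.

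Signs turned as follows. Plk2 at E15.5 was -0.0009 after quantile normalization and -0.0145 after 75th percentile centring, and ran from -0.0062 to 0.1342 over the arrays left out. Sesn1 at E16.5 was -0.0072 without WT_E16.5 replicates 1 and 2. The difference of effects was -0.0079 for Eda2r, 0.0005 for Zmat3 and -0.0022 for Mdm2 after quantile normalization, -0.0035 for Mdm2 after 75th percentile centring and 0.2273 for Ccng1 with array weights. Without the arrays marked R it was -0.0843 for Btg2 and 0.1147 for Zmat3. Without WT_E16.5 replicates 1 and 2 it was 0.1918 for Cdkn1a, 0.2395 for Ccng1, -0.1892 for Mdm2, 0.1095 for Phlda3 and -0.1375 for Sesn1. Over the arrays left out it ran from -0.1088 to 0.1445 for Eda2r, -0.2179 to 0.0672 for Ccng1, -0.0619 to 0.083 for Zmat3, -0.0862 to 0.1226 for Mdm2, -0.1792 to 0.0763 for Phlda3 and -0.0373 to 0.1957 for Sesn1. Quantile normalization lowered the median KO minus WT of all genes by 0.06 at E15.5 and 0.07 at E16.5. The stricter filter, above the 60th percentile, left Eda2r untested and gave 4 calls at each stage; its signal near the floor limits what its fold can show. The block and the allowances for array signal were not run for the comparisons between stages.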
